A study of Mus musculus with 24 samples.

Results

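The miR-31 gene gives rise to 2 measured products, mmu-miR-31-5p and mmu-miR-31-3p, which are the 5′ and 3′ arms of one precursor. These 2 of the 1881 mouse miRNAs on the array were taken by name. They had been selected on their signals and detection calls along the lobule on all 24 arrays, so their levels by zone are described here without a test. Each array held the total RNA of 50000 sorted hepatocytes from 1 zone of 1 mouse. The 3 animals were untreated male C57BL/6J mice aged 3 months, fed freely and kept in a reversed light cycle. Cells carrying CD45 or CD31 and dead cells had been removed, only tetraploid hepatocytes were kept, and the surface levels of CD73, a pericentral protein, and E-cadherin, a periportal one, divided them into zones 1 (most pericentral) to 8 (most periportal).

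MicroRNAs are short RNAs that guide Argonaute proteins to messenger RNAs, mainly through the seed, bases 2 to 8 of the mature strand. One strand of the precursor's duplex is usually loaded as the guide, and the other, the passenger, is mostly degraded. miR-31-5p is the arm usually studied as the guide and is best known from skin, intestinal and mammary epithelium, where it has been linked to Wnt signalling. In the liver lobule Wnt signals from the central vein maintain the pericentral programme, and blood oxygen is highest at the portal end.

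The precursor is shown because both arms are cut from it. It lies on chr4:88910557-88910662 of GRCm38.p6, minus strand, and is given from RefSeq with both arms in capitals.
Mir31 hairpin: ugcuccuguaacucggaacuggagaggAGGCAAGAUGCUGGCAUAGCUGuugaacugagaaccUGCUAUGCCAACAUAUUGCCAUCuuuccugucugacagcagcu
The 5p arm takes bases 28 to 49 of its 106 bases and the 3p arm bases 64 to 86, with 14 bases between them. In the predicted fold (RNAfold, minimum free energy -48.7 kcal per mol) 17 base pairs join the arms. No other miRNA gene lies within 50 kb of Mir31 in the RefSeq gene table, so the arms are not part of a miRNA cluster there.

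The mature arms and the miRNAs with a like detection pattern are shown because their seeds set which targets each could share. RefSeq sequences on GRCm38.p6 are given with the seed in capitals.
miR-31-5p: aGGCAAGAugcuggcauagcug
miR-31-3p: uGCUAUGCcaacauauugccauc
miR-125a-5p: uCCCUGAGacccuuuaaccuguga
miR-802-5p: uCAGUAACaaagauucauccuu
miR-137-3p: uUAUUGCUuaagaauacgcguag
miR-149-5p: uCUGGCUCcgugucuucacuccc
All 6 seeds differ. Of 1679 mature mouse miRNAs in the RefSeq table, 0 others shared the seed of miR-31-5p and 0 that of miR-31-3p.

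In zones 5 to 8 mmu-miR-31-5p was called detected on each of 12 arrays, and in zones 1 to 4 on 0 of 12. The other arm, mmu-miR-31-3p, had the same calls on all 24 arrays. Signals are given in intensity units after scaling each array by its upper quartile of the miRNAs that every array detected (scaled signal). The error behind a scaled signal is that of the deposited files, which was 7.36% to 9.004% of the signal for miR-31-5p and 8.00% to 31.1% for miR-31-3p.

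In zone 5 the scaled signal of miR-31-5p was 57.7 in mouse 1, 23.3 in mouse 2 and 47.6 in mouse 3. In zone 6 it was 80.4, 55.7 and 68.0, in zone 7 it was 78.7, 75.7 and 87.4, and in zone 8 it was 74.3, 79.6 and 86.6 for mice 1, 2 and 3. Every zone 5 value lay below the zone 6, 7 and 8 values of the same mouse, while the ranges of zones 7 and 8 overlapped. The means over 3 mice were 42.9 ± 17.6 (SD) in zone 5, 68.0 ± 12.3 in zone 6, 80.6 ± 6.12 in zone 7 and 80.2 ± 6.17 in zone 8. The spread between mice was wider in zone 5 than in zone 8, with a coefficient of variation of 41.2% in zone 5 and 7.69% in zone 8.

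miR-31-3p, the arm usually treated as the passenger, had scaled signals of 12.1, 2.93 and 10.5 in zone 5 for mice 1, 2 and 3. In zone 6 it had 15.99, 12.2 and 15.1, in zone 7 it had 16.5, 18.2 and 19.7, and in zone 8 it had 16.7, 18.6 and 19.5. Again zone 5 was the lowest of the detected zones in each mouse, and mouse 2 was lowest within zone 5. Over the 3 mice the means were 8.50 ± 4.88, 14.4 ± 1.98, 18.1 ± 1.59 and 18.3 ± 1.46 (SD) in zones 5, 6, 7 and 8. In sorted populations, a larger share of cells holding the miRNA and more of it per cell cannot be told apart.

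**Figure D1:**
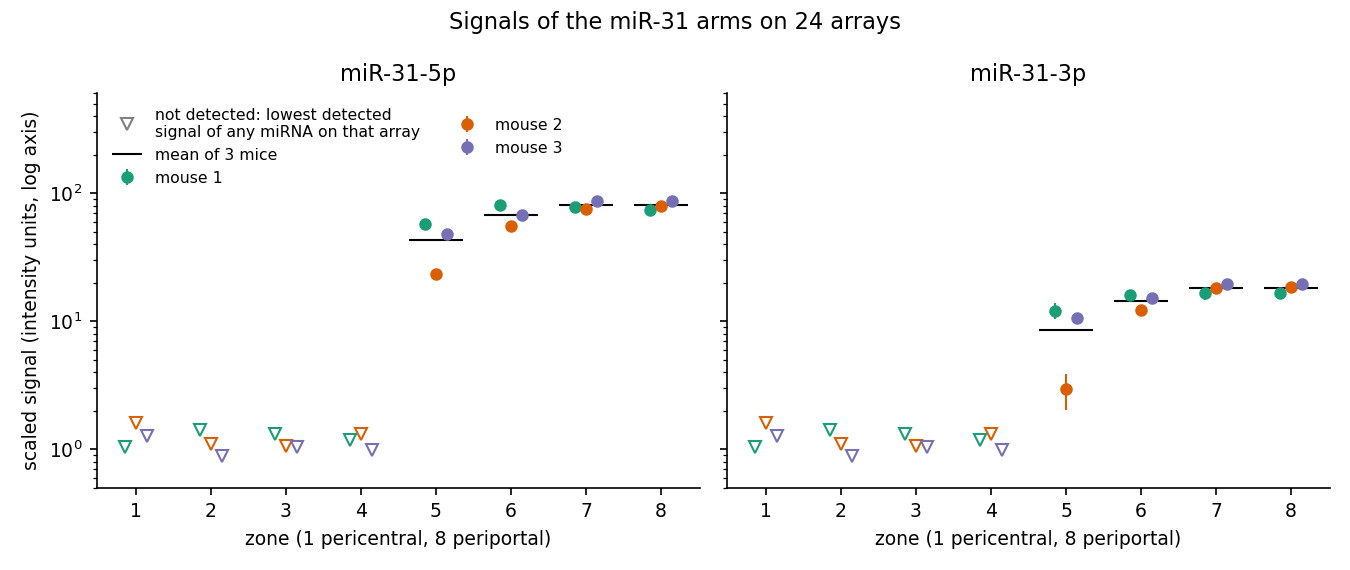
Scaled signal (intensity units, log axis) of miR-31-5p (left) and miR-31-3p (right) by zone, with 1 point per mouse, bars for the error in the deposited files and a black line for the mean of 3 mice. Open triangles in zones 1 to 4 mark the lowest detected signal of any miRNA on arrays where the arm was not detected. Both arms appear from zone 5 on, with the lowest points in zone 5 of mouse 2 (23.3 and 2.93).

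How far zones 1 to 4 lay below can be given only against what those arrays could detect. The lowest detected scaled signal of any miRNA on those 12 arrays was 0.882 to 1.62, with a geometric mean of 1.17. Against that mean, miR-31-5p was at least 34.2-fold higher in zone 5, 57.5-fold in zone 6, 68.8-fold in zone 7 and 68.4-fold in zone 8. For miR-31-3p the corresponding folds were 6.15, 12.2, 15.5 and 15.6. Without the array of mouse 2 the zone 5 folds were 44.8 for miR-31-5p and 9.62 for miR-31-3p. These folds are averages and no bounds for single arrays, since the lowest detected signals differed between arrays. In mouse 2, miR-31-3p was at 2.93 in zone 5, and the lowest detected signal of its zone 1 array was 1.62. As average bounds the folds hold only if the limit of detection of the miR-31 probes is no higher than that of the dimmest detected miRNA. This was not tested. The weakest miR-31 signal that was called detected, 2.93 for miR-31-3p, lay above the lowest detected signal of each of the 12 arrays.

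Of all 1881 miRNAs, 4 (0.213%) had calls on every array of zones 5 to 8 with no call in zones 1 to 4, and 0 (0%) had the reverse pattern. This pattern chose the miR-31 arms, so their place among the 4 is no result.

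The position of the arrays on their slides moves with the same division. Zones 5 to 8 lay in the second row and zones 1 to 4 in the first row of each slide, and each mouse had a slide of its own, so the division between zones 4 and 5 and the slide row cannot be told apart. Control sequences were compared only on slides where every array detected them, so a control missing from either row could not enter. On single slides these controls differed between the second and first rows by -0.62 to 0.32 log2 units of unscaled signal. The median size was 0.209 over 25 values from 10 of the 21 controls. On the same scale the second-row mean of miR-31-5p lay 5.79, 5.60 and 6.28 above the first row's lowest detected signals on the slides of mice 1, 2 and 3. For miR-31-3p these distances were 3.54, 3.27 and 4.12. Over all slides, between 252 and 368 miRNAs were detected on an array of zones 5 to 8, and between 248 and 313 on one of zones 1 to 4. The counts of the rows overlapped on the slides of mice 1 and 2. On the slide of mouse 3 they did not, with 311 to 368 in the second row and 289 to 308 in the first. The lowest detected scaled signals on that slide were 0.61 to 0.86 and 0.88 to 1.26. The part of this difference in the miR-31 pattern was not tested. Summed signals were 57935 to 138301 in zones 5 to 8 and 65970 to 137270 in zones 1 to 4.

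**Figure D2:**
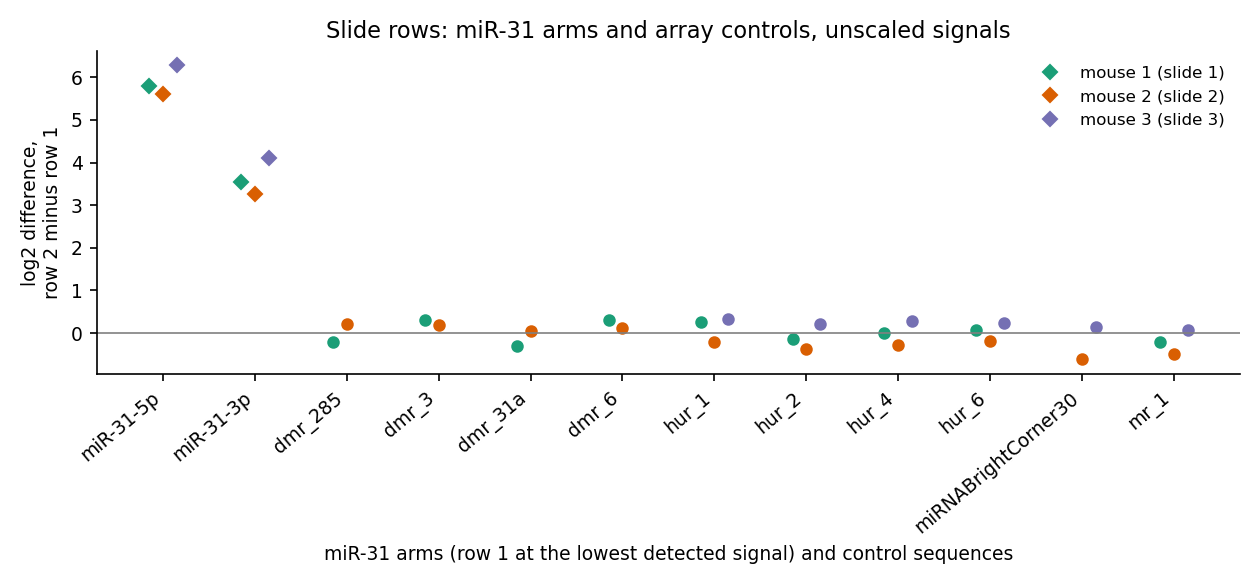
Log2 difference between the second and first slide row in unscaled signal, 1 point per slide. For the miR-31 arms (diamonds) the first row is set at its lowest detected signals of any miRNA. The control sequences (circles) are only those detected on every array of the slide. The arms lie between 3.27 and 6.28, and the controls between -0.62 and 0.32.

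The labelled cell type and other cell types of the liver were checked by lists of miRNAs. All 4 hepatocyte miRNAs listed, miR-122-5p, miR-122-3p, miR-192-5p and miR-194-5p, were detected on all 24 arrays. Their summed scaled signal was 12376 to 17028 in zones 5 to 8 and 7714 to 12990 in zones 1 to 4, and the part of that difference in the miR-31 pattern was not tested. Of 7 biliary and other epithelial miRNAs 2 were detected, miR-200b-3p on 1 array of zones 5 to 8 and miR-203-3p on all 24. The summed level of that list was 21.5 to 32.3 in zones 5 to 8 and 18.1 to 31.8 in zones 1 to 4. Over all 8 zones miR-203-3p, which carried that sum, rose with the zone number as given below, and its part in the miR-31 pattern was not tested. miR-200a-3p, miR-200c-3p, miR-141-3p, miR-429-3p and miR-205-5p were not detected on any array. None of the 5 leukocyte and Kupffer cell, 5 stellate cell and fibroblast or 3 red cell miRNAs listed was detected, and of 2 endothelial ones miR-126a-3p was detected on 9 arrays of zones 5 to 8 and 7 of zones 1 to 4, with a summed level of 0 to 11.4 in zones 5 to 8 and 0 to 11.03 in zones 1 to 4.

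Neighbouring zones were compared within each mouse to see where the levels level off. From zone 5 to zone 6 miR-31-5p was higher in 3 of 3 mice, by 0.75 ± 0.44 log2 units (SD, n = 3). Zone 7 against zone 6 gave 0.26 ± 0.25, with differences of -0.03, 0.44 and 0.36 in mice 1, 2 and 3. Zone 8 against zone 7 gave -0.01 ± 0.08, and with this scaling the mean difference was smaller than its spread.

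miR-31-3p had the same order. Zone 6 lay 0.99 ± 0.92 above zone 5 and zone 7 lay 0.34 ± 0.27 above zone 6 (log2 units, SD, n = 3), each higher in 3 of 3 mice. In mouse 1 the difference of zone 7 from zone 6, 0.54 in scaled signal, was smaller than its combined file error of 2.45. With quantile normalization zone 7 was above zone 6 in 2 of 3 mice. Zone 8 against zone 7 gave 0.01 ± 0.02, again smaller than its spread. The level stretch at the portal end depended on the scaling: without scaling, zone 8 was above zone 7 in 3 of 3 mice for both arms, by 0.21 ± 0.08 for miR-31-5p and 0.23 ± 0.12 for miR-31-3p, and with scaling to the summed signal by 0.10 ± 0.05 and 0.12 ± 0.04. With quantile normalization zone 8 was above zone 7 in 0 of 3 mice for both arms, and the differences were -0.02 ± 0.03 and -0.05 ± 0.01.

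Over zones 5 to 8 the fitted slope was 0.33 ± 0.10 log2 units per zone for miR-31-5p and 0.44 ± 0.14 for miR-31-3p (SE, limma, 12 arrays). The median slope over the 214 miRNAs detected on all 12 arrays was 0.0033. In that fit 0 of 214 miRNAs rose (0%) and 0 fell (0%) in limma, against 14 and 12 at an unadjusted p under 0.05, so the arms are described by their values alone. Per mouse the slope of miR-31-5p was 0.11, 0.58 and 0.30 in mice 1, 2 and 3, and that of miR-31-3p was 0.14, 0.86 and 0.31. A single array, zone 5 of mouse 2, held much of this gradient: without it the slopes were 0.20 and 0.23. Leaving out each of the other 11 arrays gave 0.32 to 0.37 for miR-31-5p and 0.42 to 0.50 for miR-31-3p. Without all of zone 5 they were 0.13 and 0.17, without zone 8 they were 0.50 and 0.67, and without mouse 2 they were 0.20 and 0.23.

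Zone 8 exceeded zone 5 in all 3 mice, by 1.29-fold, 3.41-fold and 1.82-fold for miR-31-5p and by 1.38-fold, 6.35-fold and 1.86-fold for miR-31-3p in mice 1, 2 and 3. In scaled signal, zone 6 of mouse 1 was at 108% of its zone 8 for miR-31-5p, against 69.9% in mouse 2 and 78.5% in mouse 3. This order depended on the scaling. Unscaled, miR-31-5p in mouse 1 was lower in zone 6 (67.5) than in zone 8 (75.4). Relative to the summed signal, the share was higher in mouse 3 than in mouse 1. The arms' differences between mice in slope were not tested, since the arms were selected on these signals. As background, 0 of the 214 miRNAs (0%) passed limma's test of an interaction of mouse and zone number, which was chosen after the values were seen, and 59 had an unadjusted p under 0.05.

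Differences between animals come from the same signals on which the arms were selected, so they are also given without a test. Over the 4 zones 5 to 8, miR-31-5p averaged 6.17 ± 0.22 log2 units in mouse 1, 5.73 ± 0.82 in mouse 2 and 6.14 ± 0.41 in mouse 3 (SD, n = 4). With zone as a factor, mouse 2 minus mouse 1 was -0.45 ± 0.20, mouse 3 minus mouse 1 was -0.04 ± 0.20, and mouse 3 minus mouse 2 was 0.41 ± 0.20 (SE of the limma fit). In the same fit 88 of 214 miRNAs (41.1%) differed between mice (moderated F test). Mouse 2 was higher than mouse 1 for 39 (18.2%) and lower for 38 (17.8%), mouse 3 was higher than mouse 1 for 23 (10.7%) and lower for 15 (7.01%), and mouse 3 was higher than mouse 2 for 33 (15.4%) and lower for 27 (12.6%). Hence differences between these animals, which are also differences between slides, were common among other miRNAs.

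miR-31-3p averaged 3.92 ± 0.22, 3.39 ± 1.26 and 3.97 ± 0.43 log2 units in mice 1, 2 and 3 (SD, n = 4). Mouse 2 minus mouse 1 was -0.53 ± 0.32, mouse 3 minus mouse 1 was 0.05 ± 0.32 and mouse 3 minus mouse 2 was 0.58 ± 0.32 (SE). With zone 5 left out, mouse 2 minus mouse 1 was -0.16 for miR-31-5p and -0.03 for miR-31-3p. With scaling to the summed signal the same difference was -0.85 ± 0.22 for miR-31-5p and -0.93 ± 0.37 for miR-31-3p (SE). Mouse 3 minus mouse 1 took either sign by scaling for both arms. For miR-31-5p it was 0.47 ± 0.28 without scaling and -0.49 ± 0.22 with the summed signal. For miR-31-3p it was 0.56 ± 0.42 without scaling and -0.40 ± 0.37 with the summed signal (SE).

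The ratio of the arms within an array is not touched by dividing that array by a constant. It compares the signals of 2 probes and is no ratio of molecules, so its change between arrays is what can be read. The signal ratio of miR-31-5p to miR-31-3p was 4.79, 7.96 and 4.52 in zone 5 for mice 1, 2 and 3. It was 5.03, 4.57 and 4.51 in zone 6, 4.76, 4.17 and 4.44 in zone 7, and 4.46, 4.28 and 4.44 in zone 8. Outside zone 5 of mouse 2 the 11 ratios lay between 4.17 and 5.03, while the signal of each arm varied more widely. The high ratio of 7.96 had a file error of 2.58, because miR-31-3p was weakest there, with an unscaled signal of 2.23 ± 0.694. In zone 8 against zone 5 the log2 ratio differed by -0.34 ± 0.48 (SD, n = 3), with -0.10, -0.90 and -0.03 in mice 1, 2 and 3.

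**Figure D3:**
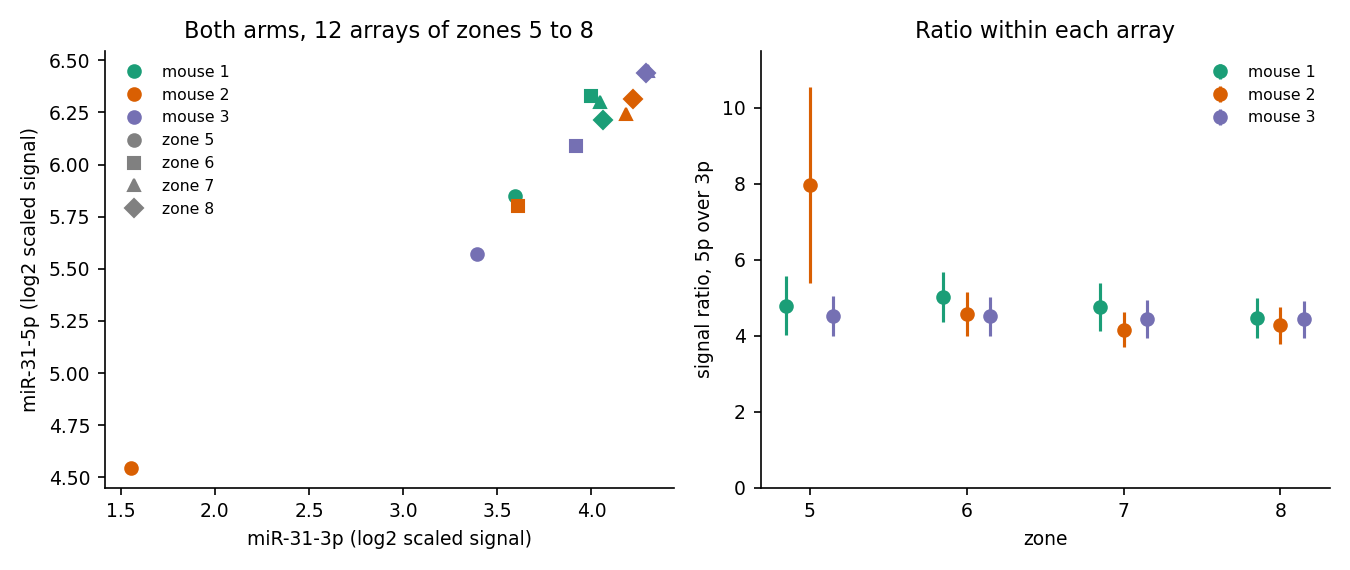
Left, log2 scaled signal of miR-31-5p (vertical) against miR-31-3p (horizontal) on the 12 arrays of zones 5 to 8, with colour for the mouse and shape for the zone. Right, signal ratio of miR-31-5p to miR-31-3p in each array, with bars for the error from the deposited files. The ratios lie between 4.17 and 5.03, except for zone 5 of mouse 2 at 7.96.

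Among the 448 miRNAs detected on any array, likeness to miR-31-5p was first measured as the number of the 24 arrays with the same detection call. The calls of miR-802-5p, miR-125a-5p and miR-31-3p matched on all 24, those of miR-137-3p and miR-149-5p on 22, and no others on 23. miR-802-5p is known from hepatic glucose metabolism, and miR-125a-5p belongs to a family related to the lin-4 miRNA of worms. Both miR-137-3p and miR-149-5p went undetected in zone 5 of mice 1 and 2 and detected there in mouse 3, at scaled signals of 5.47 and 2.53. Zone 5, where the miR-31 arms were weakest, was thus also where these miRNAs were missing in part.

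Likeness within zones 5 to 8 was measured as Pearson's r of log2 scaled signal over the 12 arrays, which share mice, slides and array scaling, among the same 214 miRNAs. For miR-31-5p the 5 highest were miR-31-3p (r = 0.985), let-7e-5p (0.900), miR-99a-5p (0.897), miR-125b-5p (0.890) and miR-29b-3p (0.847). For miR-31-3p they were miR-31-5p, let-7e-5p (0.860), miR-99a-5p (0.823), miR-125b-5p (0.808) and miR-125a-5p (0.799). The lowest for miR-31-5p were miR-3069-3p (-0.820) and miR-455-3p (-0.787). Without the array of zone 5 of mouse 2, r with miR-31-5p was 0.970 for miR-125b-5p, 0.969 for miR-31-3p and 0.958 for miR-99a-5p, the 3 highest, while let-7e-5p had 0.779, miR-125a-5p had 0.566 and miR-455-3p had -0.309. The r of miR-3069-3p was -0.039 without scaling and -0.671 with quantile normalization, and that of miR-455-3p was -0.265 and -0.686.

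Set against zone 8 of the same mouse, zone 5 stood at 54.0% ± 24.2 for miR-31-5p and 47.3% ± 28.9 for miR-31-3p (SD, n = 3). It stood at 60.1% ± 7.80 for miR-802-5p, 75.6% ± 12.2 for let-7e-5p, 76.0% ± 13.3 for miR-99a-5p, 76.4% ± 10.4 for miR-125b-5p and 81.3% ± 11.9 for miR-125a-5p. Unlike the arms, miR-99a-5p and miR-125b-5p were also detected on every array of zones 1 to 4. Their zone means there were 30.9 to 33.9 and 74.9 to 82.8 in scaled signal. Of those arrays, 4 detected let-7e-5p. In mice 1, 2 and 3 the share was 77.6%, 29.3% and 54.9% for miR-31-5p and 72.3%, 15.7% and 53.8% for miR-31-3p. In zone 5 of mouse 2 miR-31-5p was at 0.444 and miR-31-3p at 0.260 times the mean of the other mice in zone 5, miR-125a-5p at 0.675 and let-7e-5p at 0.704, while miR-802-5p was at 1.30 times. Over the 224 miRNAs detected on all 3 zone 5 arrays, the log2 difference of mouse 2 from the other mice ran from -1.44 to 0.85 between the 5th and 95th percentiles. miR-31-5p, at -1.17, lay inside that range and miR-31-3p, at -1.94, below it. Zone 7 stood between 99.2% and 107.9% of zone 8 in the mean for all 7 miRNAs. These differences between miRNAs were not tested.

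**Figure D4:**
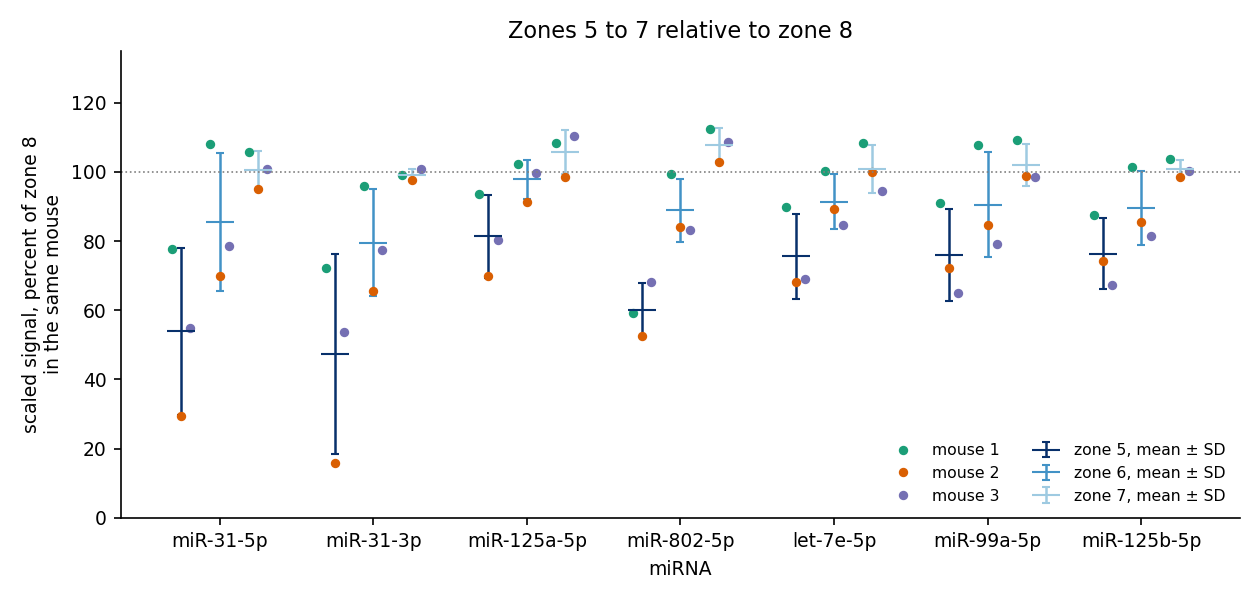
Scaled signal in zones 5, 6 and 7 as a percentage of zone 8 in the same mouse, for the miR-31 arms and 5 miRNAs. These 5 were like the arms in detection calls or in Pearson's r over zones 5 to 8. Points are mice, and lines with bars are the mean ± SD of 3 mice. In zone 5 the miR-31 arms average 54.0% and 47.3%, with mouse 2 at 29.3% and 15.7%.

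miR-31 has been linked to Wnt signalling and, in human cells, to the oxygen sensing pathway through the HIF inhibitor FIH, so miRNAs tied to those pathways were set beside it. Counts are from the slope over all 8 zones in 339 miRNAs detected on at least 6 arrays, of which 35 rose (10.3%) and 22 fell (6.49%), or 49 (14.5%) and 56 (16.5%) with mouse as a block (limma). The split depended on scaling, with 36 and 3 without scaling and 44 and 6 with the summed signal. These slopes span both slide rows, so a change along the zones and a difference between rows cannot be told apart in them. Without the block, the fit treats the 24 arrays as independent, although each mouse gave 8. Of 7 Wnt-linked miRNAs 4 were tested. miR-203-3p, an epithelial differentiation miRNA, rose by 0.58 ± 0.14 log2 units over the axis (SE, limma adjusted p = 0.00546) and miR-27a-3p rose by 1.23 ± 0.33 (adjusted p = 0.0107). It was detected on 15 of 24 arrays, with the others set to the floor of 1.12, so the size of its change depends on that floor. miR-29a-3p had a fitted change of 0.38 ± 0.14 (limma adjusted p = 0.0593). It passed with mouse as a block (adjusted p = 0.0273) and with the summed signal (0.0203), and its slope was -0.02 per zone with quantile normalization (0.391). miR-34a-5p, a target of p53, had a fitted change of 0.25 ± 0.18. The list's median slope was 0.0686 log2 units per zone, against -0.0142 over all 339. miR-200a-3p, miR-135a-5p and miR-135b-5p were not detected on any array.

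Of 8 hypoxia-linked miRNAs 4 were tested, with a median slope of -0.0645. miR-21a-5p, an abundant hepatocyte miRNA, rose by 1.17 ± 0.24 (limma adjusted p = 0.00119). miR-107-3p fell by 0.45 ± 0.13 (adjusted p = 0.0206) and miR-20a-5p fell by 0.45 ± 0.15 (adjusted p = 0.0392), but neither passed without scaling (adjusted p = 0.734 and 0.790) or with the summed signal (0.223 and 0.325). For miR-210-3p, a classic target of HIF, the fitted change was -0.48 ± 0.47, and it was detected on 16 of 24 arrays. miR-17-5p was detected on 5 arrays, and miR-199a-5p, miR-322-5p and miR-155-5p on none. None of these miRNAs was absent from zones 1 to 4 and present on every array of zones 5 to 8 as the miR-31 arms were. Only 4 of all 1881 miRNAs (0.213%) had that pattern, so its lack in these short lists is no result.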

How the data were processed

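Per the labels' protocols, Cy3-labelled total RNA of each population was run on an Agilent mouse miRNA array of 1 colour. The authors deposited, for each miRNA, an intensity (total gene signal, linear scale), its error and a detection call. The submitters' processing notes name Agilent Feature Extraction, and its version is not given in the sources used here. Undetected miRNAs carry a signal of 0.1 and an error of 1 in the deposited files.

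For scaling, the 75th percentile of the 198 miRNAs that all arrays detected was taken per array, and each array was brought to the mean of these percentiles before log2. Controls (21) were left out. In the fit over 8 zones, undetected values were set to a floor of 1.12. Fits used limma 3.58.1 in R 4.3.3 with Benjamini-Hochberg adjustment over all fitted miRNAs at 0.05. Ratio errors combine file errors in quadrature. The arms get no p, since their signals on all 24 arrays chose them. The members, lists and tests were chosen with earlier results of these data known. Named miRNAs are the 6 alike on at least 22 arrays, the 5 highest and, for miR-31-5p, 2 lowest r over zones 5 to 8, and members of both lists.

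Mouse numbers pair arrays, since the 8 populations of a number came from 1 animal. Deviations from zone means correlated between arrays of a mouse with a median of 0.610 and a lowest value of 0.254 over 84 pairs. Each mouse had its own slide, so animal and slide cannot be told apart in these correlations. On simulated data over 214 miRNAs, mouse shifts of 0.5 and 1 log2 units were recovered in 66.8% and 94.2% of cases. For simulated slopes, the shares were 76.5% at 0.2 and 94.8% at 0.4 log2 units per zone. On the measured arrays 0 of 214 slopes over zones 5 to 8 passed, although those of the arms were 0.33 and 0.44. The simulated slopes were planted in arrays without differences between mice, whereas the measured arrays hold such differences. Hence the simulated shares cannot be read as the power of the fit to the measured arrays. Mature sequences were matched by name for 1608 of 1881 miRNAs. RNAfold 2.7.2 folded the hairpin, and figures used matplotlib 3.10.9 in Python 3.11.15. Only 3 arrays per zone limit the precision.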

Additional observations from a re-analysis of the deposited data

Results flagged for a closer look

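The array also carries a control sequence named dmr_31a, which lies outside the miRNA comparisons and gave a signal on some arrays. It was detected on all 8 arrays of mouse 1 and all 8 of mouse 2, with unscaled signals from a lowest of 382 to 643, and on none of the 8 arrays of mouse 3. On the slide of mouse 1 it averaged 432 ± 49.6 in zones 5 to 8 and 533 ± 62.6 in zones 1 to 4, and on that of mouse 2 it averaged 611 ± 23.2 and 594 ± 52.3 (SD, n = 4 each). On the 8 arrays of zones 1 to 4 of mice 1 and 2, dmr_31a was detected and neither miR-31 arm was. On the 4 arrays of zones 5 to 8 of mouse 3, both arms were detected and dmr_31a was not, with miR-31-5p at 110 unscaled in zone 8. Incomplete detection on the slide of mouse 3 was not particular to dmr_31a. The controls dmr_285, dmr_3 and dmr_6 were also detected on every array of mice 1 and 2. Like dmr_31a, they were not detected on every array of mouse 3. The controls hur_1, hur_2, hur_4, hur_6 and mr_1 were detected on every array of all 3 mice. The cause was not tested.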

How the results depend on the processing

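With mouse as a replicate block, the slopes over zones 5 to 8 stayed at 0.33 (SE 0.08) for miR-31-5p and 0.44 (SE 0.13) for miR-31-3p, and 0 miRNAs rose or fell, against 18 and 25 at an unadjusted p under 0.05. In the slope over 8 zones the falling count was 22, and it was 3 without scaling, 6 with the summed signal, 56 with mouse as a block and 9 to 25 when each mouse was left out. The count differing between mice in zones 5 to 8 was 88, and it was 167 without scaling, 152 with the summed signal and 39 without zone 7. The cause was not tested. The log2 difference between zones 8 and 5 was 1.00 for miR-31-5p and 1.34 for miR-31-3p, and without each mouse it was 0.62 to 1.32 and 0.68 to 1.78. Mouse 2 minus mouse 1 was -0.45 for miR-31-5p, and -0.85 with the summed signal. The number of miRNAs with calls throughout zones 5 to 8 and no call in zones 1 to 4 stayed 4 when each mouse was left out and with 1 exception allowed. Near the detection limit, as for miR-31-3p in zone 5 of mouse 2, the signal's own error limits what can be read.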
